A study of Mus musculus with 9 samples.

Results

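Genes of the complement system were followed in 4T1 cells, a mouse mammary carcinoma line, and in its drug-selected derivatives MR20 and DR500. The members were picked by gene name, as activators and inhibitors of the system, with earlier results of these data known. The set holds 4 activators, C1s1, Masp1, C3 and Cfb, and 3 inhibitors, Serping1, Cd55 and Cd59a, that is 7 genes of which 6 were measured among 19938 genes with a probe set of their own. No probe set listed for C3 was among those used here, so the central component was not analysed. Each of the 6 measured members had 1 probe set whose only annotated gene it was.

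MR20 cells had survived methotrexate, a folate antagonist, which the labels give as 20 µg/ml and the text of the study in ng/ml. DR500 cells had survived doxorubicin, an anthracycline, in steps up to 500 ng/ml, although some label fields of these arrays name methotrexate. Both derivatives had recovered without drug before RNA extraction, as the study describes, and 4T1 cells were untreated. Each line gave 3 arrays, which the labels call biological replicates for MR20 and 4T1 and trace to wells of cultured cells for DR500, and the study calls the arrays of all lines biological triplicates. The sources used here do not give the selection as repeated, so the tests weigh differences only against the spread among these samples. The labels place the 4T1 cultures beside MR20, and the DR500 protocol names a 4T1 control by another name, so that a culture or array batch cannot be told apart from the DR500 line.

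Complement is a cascade of plasma proteases that tags and lyses cells. The classical pathway starts with C1q, whose partner proteases C1r and C1s cleave C4 and C2. The lectin pathway starts with mannan-binding lectin, ficolins or collectins and their MASP proteases. In the alternative pathway factor B joins cleaved C3, and all pathways meet at C3 and end in the membrane attack complex. Host cells protect themselves with C1 inhibitor, which blocks C1r, C1s and the MASPs, with decay-accelerating factor (CD55), which takes apart the convertases, and with CD59, which stops the attack complex. The liver makes most plasma complement, but carcinoma cells can express complement genes and inhibitors as well.

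Promoters from RefSeq (build GRCm38.p6) were available for C1s1, C3, Cd55 and Cd59a among the members. Each spans 250 bases before and 50 after a transcription start. C1s1 and C1s2, close together on chromosome 6, both rose in DR500, while Cd59a moved and its paralog Cd59b did not pass. Cd55 was below the median of all probe sets on every array and did not pass. For these reasons the promoters of these 5 genes are shown. Their places are C1s1 chr6:124542310-124542609, minus strand; C1s2 chr6:124636036-124636335, minus strand; Cd59a chr2:104095551-104095850, plus strand; Cd59b chr2:104070816-104071115, plus strand; Cd55 chr1:130462695-130462994, minus strand. C1s1 has 2 annotated starts, of which the upstream one is shown. Capitals mark motif matches on either strand. Cd59a held the core of the interferon-stimulated response element (GAAA, any 2 bases, GAAA), and Cd59b and Cd55 held an NF-kB site (GGG, any 2 bases, TT, any base, CC). None of the 5 held a STAT site (TTC, any 3 bases, GAA). The reference strain is C57BL/6J, whereas 4T1 derives from BALB/c.
C1s1: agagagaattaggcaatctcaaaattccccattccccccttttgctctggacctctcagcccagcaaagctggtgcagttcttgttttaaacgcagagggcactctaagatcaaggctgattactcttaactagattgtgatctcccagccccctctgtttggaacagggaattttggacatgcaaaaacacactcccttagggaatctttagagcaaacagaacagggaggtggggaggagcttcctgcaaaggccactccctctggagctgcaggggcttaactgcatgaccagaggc
C1s2: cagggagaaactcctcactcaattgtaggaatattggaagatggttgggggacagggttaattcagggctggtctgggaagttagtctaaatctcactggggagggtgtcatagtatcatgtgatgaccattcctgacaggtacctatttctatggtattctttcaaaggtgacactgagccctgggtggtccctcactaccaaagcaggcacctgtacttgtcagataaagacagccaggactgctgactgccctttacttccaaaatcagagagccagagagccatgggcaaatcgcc
Cd59a: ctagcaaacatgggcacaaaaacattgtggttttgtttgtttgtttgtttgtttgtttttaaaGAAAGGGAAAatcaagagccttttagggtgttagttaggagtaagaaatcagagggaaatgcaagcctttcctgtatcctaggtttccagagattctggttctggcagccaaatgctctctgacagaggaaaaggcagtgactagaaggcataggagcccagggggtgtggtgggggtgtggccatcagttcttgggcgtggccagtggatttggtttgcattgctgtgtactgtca
Cd59b: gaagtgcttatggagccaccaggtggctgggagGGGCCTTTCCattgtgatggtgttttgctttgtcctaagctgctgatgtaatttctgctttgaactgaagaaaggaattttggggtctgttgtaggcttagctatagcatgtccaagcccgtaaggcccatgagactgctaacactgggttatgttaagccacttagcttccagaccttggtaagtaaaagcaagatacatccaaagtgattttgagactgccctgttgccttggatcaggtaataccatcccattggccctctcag
Cd55: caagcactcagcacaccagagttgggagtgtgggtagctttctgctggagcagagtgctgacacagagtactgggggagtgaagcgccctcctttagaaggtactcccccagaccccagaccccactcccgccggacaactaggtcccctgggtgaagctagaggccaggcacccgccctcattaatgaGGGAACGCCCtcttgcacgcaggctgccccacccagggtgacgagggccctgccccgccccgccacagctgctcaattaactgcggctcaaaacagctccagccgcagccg
Relative to the start, the interferon element of Cd59a begins at -187 and the NF-kB match of Cd55 at -61. Among 32851 promoters of this length, 3.44% held the interferon element, 8.30% the STAT site and 4.79% the NF-kB site, so a match is a description of these letters and not a binding site. Of 41 complement genes with a promoter, 4 held the interferon element, 8 the STAT site and 5 the NF-kB site in at least 1 of their promoters.

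Of the members, C1s1 of the classical pathway, Masp1 of the lectin pathway and 2 of the 3 inhibitors rose in DR500 cells relative to 4T1 cells. The shifts of these genes in MR20 cells were smaller in size, while Cfb rose relative to 4T1 in MR20 only. Masp1, C1s1, Cd59a and Serping1 rose in DR500, by 2.93, 2.08, 1.30 and 0.98 on the log2 scale. In MR20, Cfb rose by 0.61 and Masp1 by 0.56, and Cd59a fell by 0.59. Values are log2 expression as the authors normalized it, with an adjusted p under 0.05 from limma, Benjamini-Hochberg over all genes, as the test. Of 6 members, 4 rose and none fell in DR500 (also none with an unadjusted p below 0.05), where 20.2% of all genes rose and 21.3% fell. In MR20, 2 rose and 1 fell, where 15.4% of all genes rose and 17.1% fell. Between DR500 and MR20, 4 were higher and 1 was lower in DR500, against 21.2% and 20.6% of all genes. The counts for DR500 against 4T1 and for MR20 against 4T1 share the same 4T1 arrays.

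The lines were checked for markers of other cell types. The mean level of 7 epithelial genes was 12.08 to 12.13 in MR20 and 8.79 to 8.92 in DR500, against 11.98 to 12.05 in 4T1. In DR500, 6 of the 7 fell, namely Cldn4 (-5.84), Krt7 (-5.67), Epcam (-4.19), Cdh1 (-3.84), Krt19 (-2.37) and Krt18 (-0.36). Krt8 was at 13.43 in DR500 and 13.41 in 4T1. Of 11 measured leukocyte genes, 4 rose in DR500 and 3 in MR20. In DR500, Cd53 rose by 4.35 and Cd68 by 2.30, but Ptprc, which marks all leukocytes, was at 5.18 in MR20 and 5.24 in DR500, against 5.17 in 4T1. The mean level of the leukocyte genes was 6.2 to 6.27 in MR20 and 6.60 to 6.66 in DR500, against 5.89 to 5.95 in 4T1. For 9 fibroblast genes the mean was 6.09 to 6.18 in MR20 and 6.81 to 6.90 in DR500, against 6.18 to 6.26 in 4T1, with rises in DR500 of Fbln1 (3.70), Pdgfra (1.70) and Dcn (0.56), while Postn fell by 0.97 and Col1a1, Col1a2, Lum, Pdgfrb and Thy1 did not pass. In MR20, Postn rose by 1.34, and Fbln1 and Pdgfra fell by 0.99 and 0.63. For 5 hepatocyte genes the mean was 4.76 to 4.94 in MR20 and 4.94 to 5.18 in DR500, against 4.78 to 4.93 in 4T1, with a rise of Apoa1 in DR500 (0.45, adjusted p = 0.00865 from limma) and Alb, which did not pass, at 4.50 in DR500 and 4.31 in 4T1. The part of the epithelial, fibroblast and leukocyte markers in the complement differences was not tested. In bulk RNA a change in the share of cells and in RNA per cell cannot be told apart.

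**Figure D1:**
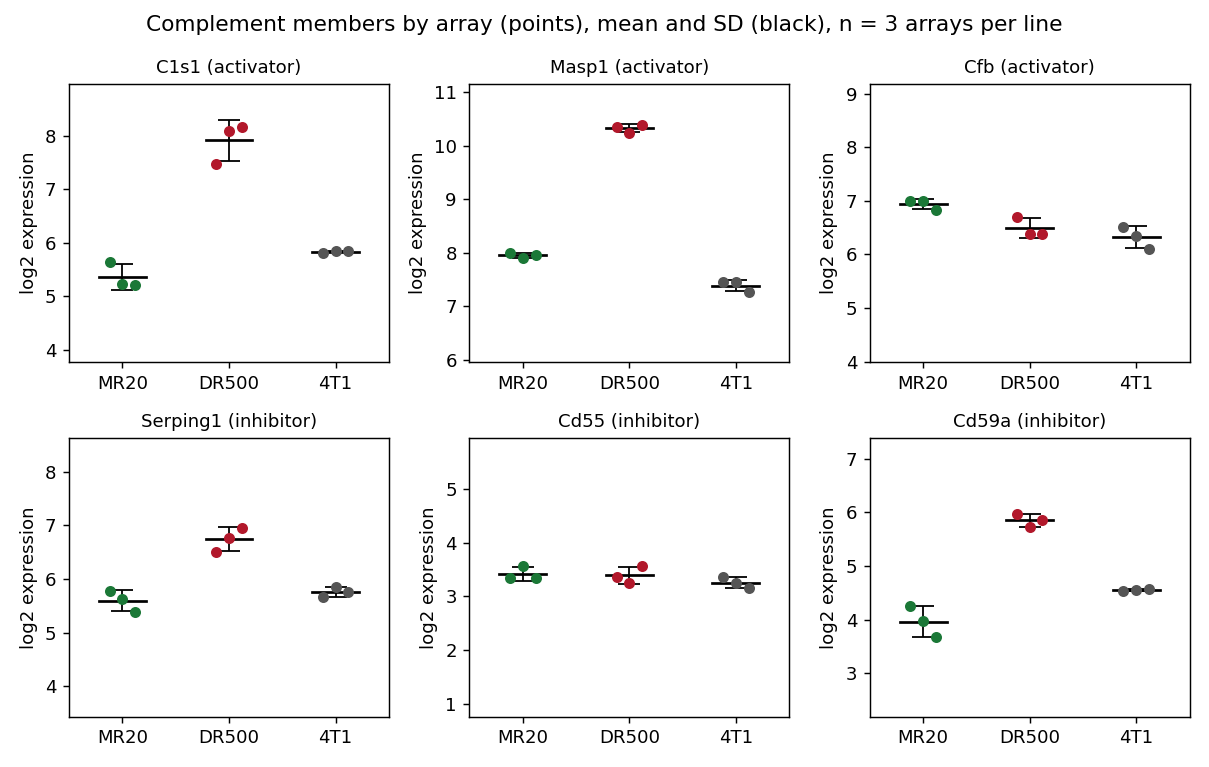
Log2 expression (y axis) of the 6 measured members in MR20, DR500 and 4T1 (x axis), 1 point per array with the mean and SD in black (n = 3). The DR500 arrays lie above all others for Masp1, C1s1, Serping1 and Cd59a, while Cd55 overlaps in all lines.

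Masp1 encodes a protease of the lectin pathway. Log2 expression of Masp1 was 8.0, 7.91 and 7.95 in MR20 and 10.34, 10.24 and 10.39 in DR500, against 7.45, 7.45 and 7.27 in 4T1. All arrays of both selected lines lay above all 4T1 arrays, and those of DR500 stood highest. The rise was 7.63-fold in DR500 (log2 fold change 2.93, standard error 0.07, adjusted p = 7.17e-10 from limma) and 1.48-fold in MR20 (0.56, adjusted p = 1.47e-04). Masp1 ranked 42 of all genes by the size of its rise in DR500.

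C1s1 encodes the protease C1s of the classical pathway. Its log2 expression was 5.64, 5.24 and 5.21 in MR20 and 7.48, 8.09 and 8.16 in DR500, against 5.82, 5.84 and 5.85 in 4T1. DR500 arrays lay above all others, replicate 1 lowest among them, and the MR20 arrays lay below those of 4T1 without overlap. The rise in DR500 was 4.21-fold (2.08, standard error 0.17, adjusted p = 4.33e-06 from limma). In MR20 the difference was -0.47 (standard error 0.17), with an adjusted p = 0.0596 that misses the threshold and a 95% interval of -0.85 to -0.09. Under the 17 alternatives this p lay between 0.00554 and 0.180, so the call in MR20 depends on the fit. Only in DR500 did C1s1 exceed the median of all probe sets on its arrays, and its values in the other lines are low signals.

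Cfb encodes factor B, the protease of the alternative pathway. Arrays of Cfb read 7.00, 6.99 and 6.83 in MR20 and 6.70, 6.39 and 6.39 in DR500, against 6.51, 6.35 and 6.11 in 4T1. The MR20 arrays stood above all others, and those of DR500 and 4T1 overlapped. Cfb rose 1.53-fold in MR20 (adjusted p = 0.00194 from limma, log2 fold change 0.61, standard error 0.11), while in DR500 the difference of 0.17 had a 95% interval of -0.09 to 0.43 (adjusted p = 0.267).

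Serping1 encodes C1 inhibitor. On the log2 scale Serping1 stood at 5.77, 5.62 and 5.39 in MR20 and 6.50, 6.77 and 6.95 in DR500, against 5.67, 5.85 and 5.76 in 4T1. The DR500 arrays stood above all others, and those of MR20 overlapped with 4T1. Only in DR500 did Serping1 exceed the median of all probe sets on its arrays, and its values in the other lines are low signals. The rise in DR500 was 1.98-fold (0.98, standard error 0.12, adjusted p = 8.15e-05 from limma). In MR20 the difference was -0.16 (95% interval -0.44 to 0.11, adjusted p = 0.397).

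Cd59a encodes an inhibitor of the membrane attack complex. The log2 values of Cd59a were 4.25, 3.97 and 3.67 in MR20 and 5.97, 5.73 and 5.86 in DR500, against 4.54, 4.55 and 4.58 in 4T1. The 3 lines did not overlap, with MR20 lowest and DR500 highest. Cd59a rose 2.46-fold in DR500 (1.30, standard error 0.12, adjusted p = 1.27e-05 from limma) and was lower in MR20, where the log2 fold change was -0.59 (adjusted p = 0.00374). All 9 values lay below the median of all probe sets, so both differences rest on low signal, and the probes may not separate Cd59a from Cd59b.

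Cd55 encodes decay-accelerating factor. Cd55 read 3.34, 3.57 and 3.35 in MR20 and 3.36, 3.25 and 3.57 in DR500, against 3.36, 3.26 and 3.16 in 4T1. The arrays of the 3 lines overlapped, and all 9 values were below the median of all probe sets. The differences were 0.16 in MR20 (95% interval -0.06 to 0.37) and 0.13 in DR500 (-0.09 to 0.35), with adjusted p-values of 0.284 and 0.314 from limma, so that no difference of Cd55 passed.

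**Figure D2:**
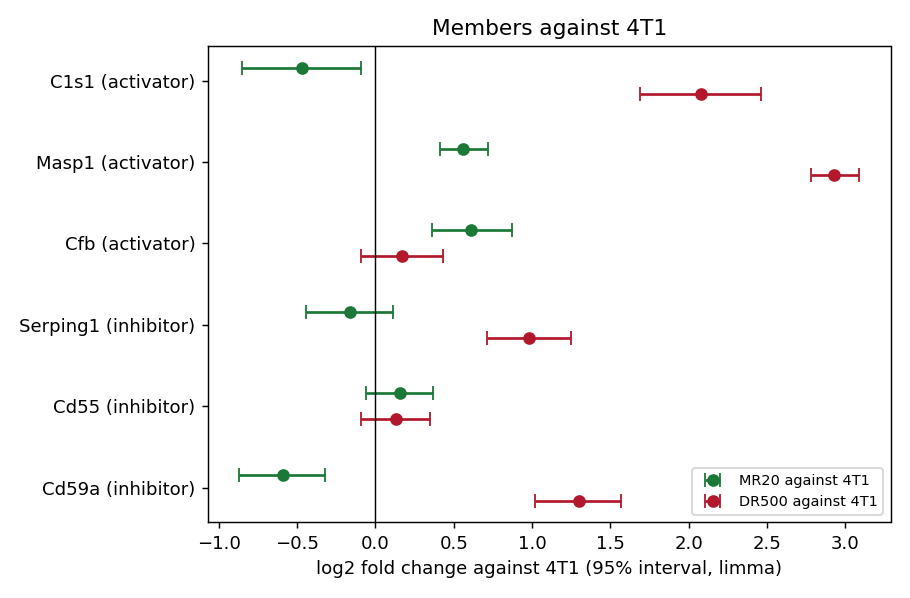
Log2 fold change against 4T1 (x axis) of each measured member (y axis), with 95% intervals from limma as bars, in MR20 and in DR500. Masp1 and C1s1 have the highest values in DR500, 2.93 and 2.08, and Cd55 crosses 0 in both lines.

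By side, the median log2 fold change of the 3 measured activators was 2.08 in DR500 and 0.56 in MR20, and that of the 3 inhibitors was 0.98 in DR500 and -0.16 in MR20. The medians over all genes were 0.066 in DR500 and -0.012 in MR20. Beyond 2-fold, 2 activators and 1 inhibitor rose in DR500 and no member moved in MR20. Over all genes, 2.47% rose and 3.09% fell beyond 2-fold in DR500 and 1.41% and 1.08% in MR20. On each side 2 of 3 measured members passed in DR500, and the log2 values of different probe sets do not give a ratio of activator to inhibitor. The wider lists by role, members included, held 27 measured activators and 15 measured inhibitors. Their medians were 0.16 for activators and 0.13 for inhibitors in DR500, and -0.02 and -0.03 in MR20. The larger gap between the sides is thus one of the members picked here.

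The derivatives were also compared directly, which tests whether their shifts from 4T1 differ. C1s1 was 5.85-fold higher in DR500 than in MR20 (2.55, adjusted p = 8.63e-07 from limma), Masp1 5.16-fold (2.37, adjusted p = 2.15e-09), Cd59a 3.71-fold (1.89, adjusted p = 7.28e-07) and Serping1 2.21-fold (1.15, adjusted p = 2.74e-05). Cfb was lower in DR500 than in MR20 by 0.44 (adjusted p = 0.00995), with DR500 at 6.49 ± 0.18 and MR20 at 6.94 ± 0.10 (SD, n = 3 each). For Cd55 the difference was -0.03 with a 95% interval of -0.24 to 0.19. Beyond 2-fold, 4 members were higher in DR500 than in MR20, where 2.87% of all genes were higher and 3.23% lower.

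Of 54 complement genes on 7 lists by role, 50 were measured, 44 of them besides the members. Of the 50, 16 rose and 3 fell in DR500, 8 of the rises beyond 2-fold, and 5 rose and 6 fell in MR20. Of these 44, 12 rose and 3 fell in DR500, or 27.3% and 6.82%, and 3 rose and 5 fell in MR20, or 6.82% and 11.4%. The percentages over all genes are those given above. The median of the 44 was 0.15 in DR500 and -0.02 in MR20. The balance of rises and falls in DR500 depends on the scaling of the arrays. After a repeated quantile normalization, 21 of the 50 genes rose and 3 fell in DR500, beside 30.6% and 18.9% of all genes, and when arrays were centred at their medians 22 rose and 3 fell, beside 29.5% and 18.1%. These scalings put the median of all genes at 0.120 and 0.122 in DR500.

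The classical pathway list, which counts C1rl and C4a, held 7 of the 16 rises in DR500. Of its 10 measured genes, C1s1 included, 7 rose and none fell in DR500 (none below an unadjusted p of 0.05 either), with a median of 0.76. In MR20, 1 rose and none fell (1 fell at an unadjusted p under 0.05). Over all genes, 20.2% rose in DR500 and 15.4% in MR20. C4b, which encodes the C4 cleaved by C1s, was at 5.36, 5.25 and 5.48 in MR20 and 7.14, 7.03 and 7.29 in DR500, against 5.57, 5.32 and 5.44 in 4T1. It rose 3.27-fold in DR500 (1.71, standard error 0.09, adjusted p = 2.15e-07 from limma), and its near-identical neighbour C4a, from which the probes may not separate it, rose by 0.54. C1s2, a second mouse C1s gene, was at 5.11, 5.29 and 5.13 in MR20 and 6.91, 7.14 and 7.00 in DR500, against 5.32, 5.36 and 5.32 in 4T1, a rise of 3.22-fold in DR500 (adjusted p = 4.87e-08). C1rl, a C1r-like protease gene, was at 7.44, 7.51 and 7.52 in MR20 and 8.52, 8.60 and 8.34 in DR500, against 6.70, 7.00 and 6.78 in 4T1. All arrays of both selected lines were above those of 4T1, with rises of 1.66 in DR500 and 0.67 in MR20. C1ra rose by 0.98 in DR500. In MR20 and 4T1, C4b and C1s2 lay below the array medians of 6.24 to 6.38, as did C4a in all lines, so these rises start from low signal. C1rl, C1ra, C1s1, C1rb and C1s2 follow each other on mouse chromosome 6 in GRCm38.p6 with no other protein-coding gene between them. The probes of C1s1 and C1s2, like those of C1ra and C1rb, may bind each other's transcripts, so their rises are uncertain as separate measurements. Of the C1q chain genes C1qa, C1qb and C1qc, only C1qc passed, at 0.33 in DR500, and C2 differed by 0.01 in DR500.

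**Figure D3:**
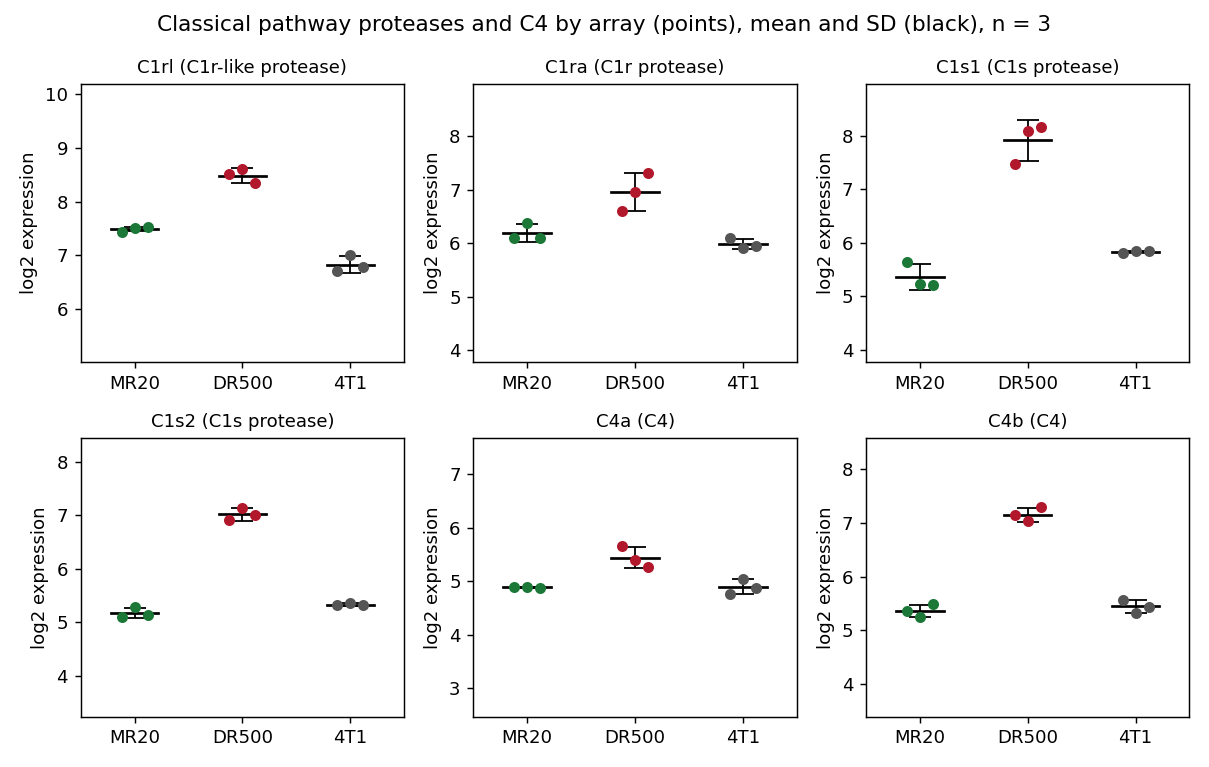
Log2 expression (y axis) of classical pathway protease genes and the C4 genes in MR20, DR500 and 4T1 (x axis), 1 point per array with the mean and SD in black (n = 3). The DR500 arrays lie above those of MR20 and 4T1 in every panel.

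In the lectin pathway, 3 of 8 genes rose and 1 fell in DR500, and 1 rose and 1 fell in MR20. The shares of all genes were 20.2% rising and 21.3% falling in DR500, and 15.4% and 17.1% in MR20. Apart from Masp1, the rises were those of the mannan-binding lectin gene Mbl1 (0.34) and the ficolin gene Fcna (0.28). Both passed narrowly, with adjusted p-values of 0.0439 and 0.0396 from limma. Mbl1 was a low signal, with means of 4.4 in DR500 and 4.06 in 4T1, below the array medians of 6.24 to 6.38. Masp2, the protease gene that cleaves C4 and C2 in this pathway, fell by 0.78 in MR20 and by 0.82 in DR500, opposite in sign to Masp1. In MR20 and DR500 Masp2 lay below the array medians, so its falls end in low signal. The other measured gene of the alternative pathway, Cfp, which encodes properdin, fell by 0.27 in MR20 and by 0.41 in DR500. None of the 7 genes of terminal components passed in either line. Without adjustment, limma gave 0 of them in MR20 and 1 rise in DR500 at a p under 0.05.

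Among soluble inhibitors, Clu, which encodes clusterin, an inhibitor of the attack complex, was at 11.93, 11.83 and 11.86 in MR20 and 11.96, 11.92 and 12.07 in DR500, against 10.59, 10.57 and 10.59 in 4T1. It rose 2.44-fold in MR20 and 2.63-fold in DR500 (adjusted p = 1.41e-07 and 3.29e-08 from limma), with no overlap with 4T1. Clu and Serping1 were the only 2 of 7 measured soluble inhibitor genes to pass in DR500, and Clu the only one in MR20. Of 8 membrane inhibitor genes, 3 fell in MR20, where 17.1% of all genes fell. These were Cd59a, Cd46 (-0.46) and Cr1l (-0.49), the rodent membrane regulator also called Crry. In DR500, Cd59a rose and Cd46 fell by 0.61, while Cr1l differed by -0.32 (adjusted p = 0.0922 from limma). Cd46 lay below the array medians of 6.24 to 6.38 on all arrays, so its falls in both lines rest on low signal. Cd59b, the paralog of Cd59a, differed by 0.16 in DR500 and -0.15 in MR20 (adjusted p = 0.361 and 0.485), and Cd55b, the paralog of Cd55, by 0.06 and 0.07. Of 8 receptor genes, 3 rose and none fell in DR500 (none without adjustment either), where 20.2% of all genes rose and 21.3% fell. C5ar2, a receptor for the C5a fragment, was at 6.58, 6.50 and 6.43 in MR20 and 7.24, 7.31 and 7.38 in DR500, against 6.10, 6.35 and 6.30 in 4T1, a rise of 2.09-fold in DR500 (adjusted p = 1.79e-06), and Itgb2, the beta chain of complement receptors, rose by 0.46. In MR20, C5ar2 rose by 0.25 and Itgb2 fell by 0.22.

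**Figure D4:**
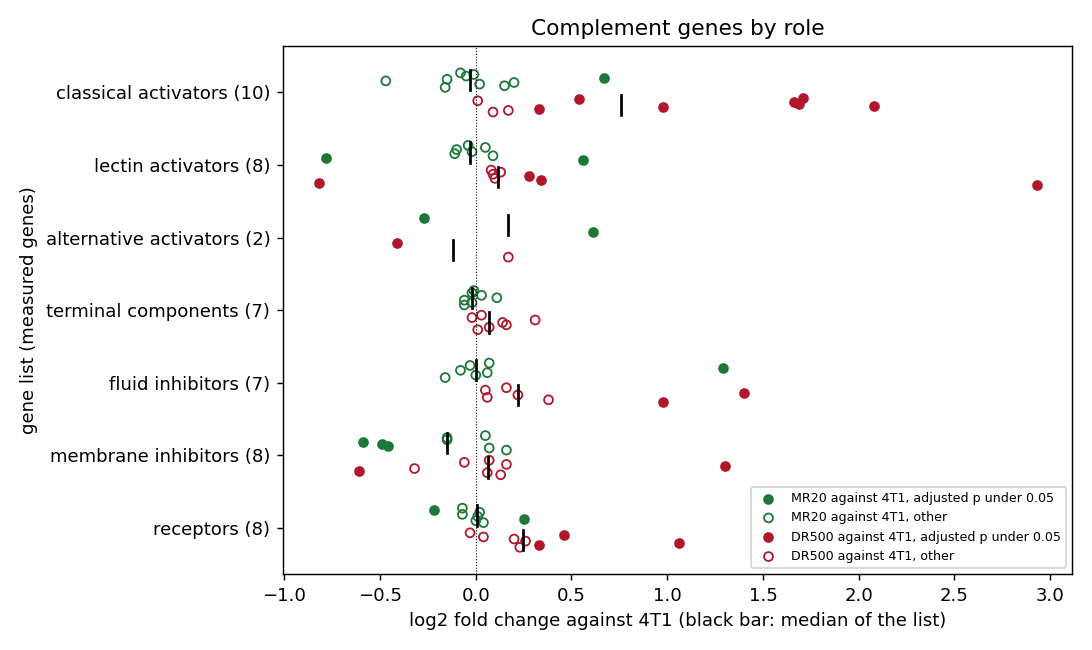
Genes of 7 complement lists (y axis) by their log2 fold change from 4T1 (x axis), 1 point per gene in MR20 or DR500. Filled points passed the test and black bars are medians, with 0.76 for the classical activators in DR500 and -0.03 in MR20.

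The nearest profiles to 4 members were found over the 9 arrays, as the root mean square difference in log2 units after centring each gene. Those of C1s1 were Mpped2 (0.147) and Cdh17 (0.166), those of Masp1 were Xdh (0.094) and Igfbp6 (0.113), those of Serping1 were Eno2 (0.085) and Pcdhb21 (0.101), and those of Cd59a were Naaa (0.129) and Mtss2 (0.133). All 8 genes were highest in DR500, which follows from choosing them by likeness to members that are highest there. The same holds for the size of their fold changes. The log2 fold change in DR500 was 2.92 for Xdh and 2.08 for Mpped2.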

How the data were processed

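The 9 arrays of MR20, DR500 and 4T1 were Affymetrix mouse whole-transcript arrays. The deposited log2 values came from robust multi-array normalization by the authors with affy (background correction, quantile normalization, summary per probe set), annotated on NCBI Build 36. Versions, batches and dates are not given in the sources used here. Array medians lay between 6.24 and 6.38 over 35556 probe sets. Of these, 21789 had 1 gene symbol, 1621 several and 12146 none, and those with 1 gave 19938 genes by Entrez identifier (21698 probe sets) or symbol. The brightest probe set by mean stood for a gene.

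The 3 lines entered 1 limma fit (limma 3.58.1, R 4.3.3) with 6 residual degrees of freedom. Adjusted p-values are Benjamini-Hochberg over all genes, and the threshold is 0.05. Precision is limited by 3 arrays per line. With 3 against 3, the smallest p of an exact permutation test is 0.1. The fit was tested on simulated data. Members and lists were chosen with earlier results of these data known. All members are named, as are list genes past the test and 2-fold, and, for members whose line means span over 1 log2 unit, the 2 nearest profiles. Further list genes were named after their values were seen. Alternatives covered the lines fitted, dim genes, scaling, probe sets, the variance prior, replicate blocks and leaving out each array. Gene order, promoters and symbols came from RefSeq (GRCm38.p6), which differs from the build of the array annotation.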

Additional observations from a re-analysis of the deposited data

Results flagged for a closer look

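The shift from 4T1 differed between DR500 and MR20, by the direct test of limma, in 5 of the 6 measured members. It also differed in 13 of the 44 other measured complement genes, or 29.5%, all of them higher in DR500. Of all genes, 21.2% were higher and 20.6% lower in DR500 than in MR20. Counting both directions, the 44 genes passed less often than all genes did. Of the 13, the 4 that also rose over 2-fold against 4T1 in DR500 are given here. The effect in DR500 minus that in MR20 was 2.55 for C1s1, 2.37 for Masp1, 1.89 for Cd59a, 1.15 for Serping1 and -0.44 for Cfb on the log2 scale. It was 1.84 for C1s2, 1.79 for C4b, 0.99 for C1rl and 0.81 for C5ar2. The adjusted p-values from limma for C1s2, C4b, C1rl and C5ar2 were 2.07e-08, 1.26e-07, 8.29e-06 and 1.20e-05. Cd59a is the member that moved in opposite directions past the test, higher in DR500 and lower in MR20 than in 4T1 in all 3 arrays of each line. Masp1, by contrast, rose in both.

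A probe set annotated to both C1ra and C1rb was outside the comparisons, which use probe sets of a single gene. Its log2 expression was 8.03, 7.90 and 7.98 in MR20 and 9.10, 9.39 and 9.65 in DR500, against 7.67, 7.74 and 7.89 in 4T1, so that all DR500 arrays lay above the 4T1 arrays by a mean of 1.61. In MR20 its mean was higher by 0.20.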

How the results depend on the processing

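Of the values of single members under 17 alternatives, 291 kept their direction and their side of the threshold, 6 came to pass it and 3 changed sign. The fall of C1s1 in MR20 passed under 6 alternatives, namely with only MR20 and 4T1 in the fit (adjusted p = 0.00975), with dim genes left out (0.0339), with an intensity trend (0.0316), and without MR20 replicate 1 (0.0266), DR500 replicate 1 (0.00554) or DR500 replicate 3 (0.0454), all from limma. The difference of Cd55 between DR500 and MR20, which passed under none, changed sign to 0.037 after repeated quantile normalization, 0.047 without MR20 replicate 2 and 0.044 without DR500 replicate 2, and ran from -0.116 to 0.047 when single arrays were left out. With dim genes left out, Cd55 and Cd59a were not tested and 12 complement genes passed in DR500 against 4T1, in place of 19. The number of genes that could pass is smaller there. Over all alternatives, 12 to 25 complement genes passed in DR500 and 8 to 12 in MR20, 3 to 4 members passed in MR20 and 3 to 4 in DR500, and 4 to 5 differed between DR500 and MR20. With the replicate number as a replicate block, 3 members passed in MR20, 4 in DR500 and 5 between them, the same numbers as without it. The correlations of the deviations of same-numbered arrays, across genes, ran from -0.309 to 0.327. They were not set beside those of arrays with different numbers, so whether the numbers pair the lines was not tested. Low signal of Cd55 and Cd59a on all arrays limits what can be read from both.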
